A study of Mus musculus with 6 samples.

Results

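Complement and coagulation genes were described in kidney of 3 BALB/c mice (BALBc in the labels) and 3 C57BL/6 mice (B6), both inbred laboratory strains, with 1 library per mouse by the series description. The group consists of 41 genes chosen by symbol, 22 of complement and 19 of coagulation and fibrinolysis, out of 23282 rows in the deposited tables, and all 41 symbols were found on a single row each. The labels give tissue and strain, and no age, sex, treatment or genotype beyond the strain. Xist, the RNA of the inactive X chromosome, had between 1035 and 1963 reads in every library, whereas the Y-linked genes Eif2s3y, Kdm5d and Uty had 0 and Ddx3y had 8, 0 and 0 reads in BALB/c and 1, 1 and 0 in B6. Libraries were made with a kit that primes on poly(A) tails, so that values report mainly the 3′ ends of transcripts. Values are given as CPM, a count scaled to a size of its library that was not exactly the sum of its counts. Those values were not divided by transcript length, and levels are compared here between libraries of the same gene. Every log2 fold is that of BALB/c relative to B6, taken between means of log2(CPM + 1), where the added 1 shrinks the folds of genes at low levels.

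Complement is a cascade of plasma proteins in which the classical, lectin and alternative pathways converge on cleavage of C3. The fragments mark surfaces, attract and activate leukocytes through receptors for C3a and C5a, and start assembly of the membrane attack complex from C6 to C9. Coagulation is a related cascade of serine proteases in which tissue factor and factor VII start thrombin formation, thrombin turns fibrinogen into fibrin, and plasmin, made from plasminogen by urokinase and tissue plasminogen activator, dissolves it. Most of these plasma proteins are made in the liver, but the kidney makes some of them in tubules, endothelium and macrophages. In bulk tissue, fewer cells of a type and less RNA per cell cannot be told apart.

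Values of the 6 libraries rested on between 8310945 and 10416476 reads each, as recovered from the deposited values. Between 12.7% and 15.6% of these reads fell on the row of Rn45s, a ribosomal RNA precursor. A gene was tested where it reached a log2(CPM + 1) of at least 1 in at least 3 libraries, which held for 34 of the 41 members, and calls were made below an adjusted p of 0.05 (limma, two-sided, Benjamini-Hochberg adjustment over all 13317 genes tested). In all, 1211 genes passed, 555 higher and 656 lower in BALB/c. That total fell to 797 without BALB/c replicate 1 and to 806 without B6 replicate 1. The 7 proximal tubule markers, which define kidney, summed to between 6266 and 7075 CPM in BALB/c and between 6449 and 6623 CPM in B6. Of these, Slc5a12 was called higher in BALB/c (1.22, limma adjusted p = 2.39e-08), and Slc34a1 and Slc5a2 lay below B6 in every BALB/c library without a call. Of 10 hepatocyte, 10 macrophage, 5 neutrophil and 7 adipocyte markers, those that moved beside a result are given with it. The reads of both strains were aligned to a build of the B6 genome, and a loss of BALB/c reads to mismatches was not tested for.

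Of the 34 tested members, 3 were higher and 5 lower in BALB/c, a total of 8 where 9.09% of all genes tested were called (4.17% higher and 4.93% lower). C3, C4b and the protein C receptor gene Procr rose, while the C5a receptor gene C5ar1, the thrombin receptor gene F2r, the factor V gene F5 and the fibrinogen chain genes Fgb and Fgg fell. By cascade, 2 of 19 tested complement genes were higher and 1 lower, and 1 of 15 tested coagulation genes was higher and 4 were lower. The median log2 fold was 0.032 over the tested members, 0.16 over those of complement and -0.37 over those of coagulation, against 0.0023 over all genes tested. Libraries of the strains did not overlap for 14 tested members, 5 above and 9 below in BALB/c, where 25.4% of all genes tested did not overlap (12.5% above and 12.9% below). C5ar1 passed the filter through the B6 libraries alone, so its difference was in part fixed by the filter, and 23 members were at the filter level in every library. The 7 untested members were C6, C7, Masp1, F2, F3, F7 and Plg. Without BALB/c replicate 1 the number of members called lower was 3, as it was without B6 replicate 2.

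**Figure D1:**
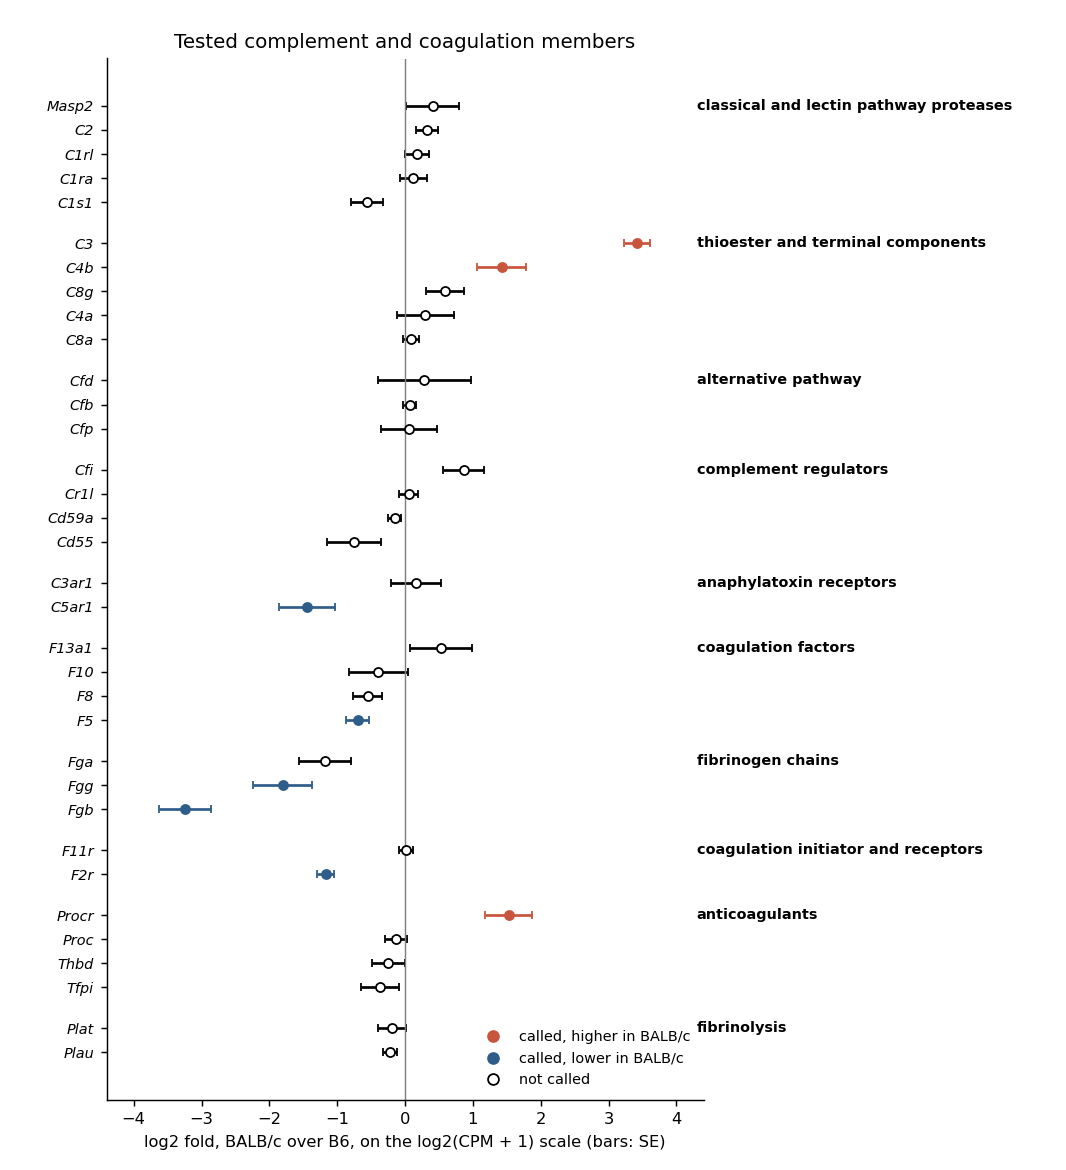
Log2 fold between BALB/c and B6 means of log2(CPM + 1), positive where BALB/c was higher (x axis), for the 34 tested members, grouped by role (y axis), with bars for the SE and filled points for called genes. C3 at 3.42 and Fgb at -3.24 lie farthest from 0 on either side, and 26 members with open points were not called.

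Among tested complement genes, the largest log2 fold on the log2(CPM + 1) scale was that of C3. By limma-voom on the recovered reads, C5ar1 had the larger fold in size (-4.45 ± 1.12, SE, against 3.53 ± 0.27 for C3). That C5ar1 fold rested on 2 BALB/c reads, and C5ar1 passed the filter through the B6 libraries alone. C3 encodes the protein on whose cleavage all pathways converge, and lies on chromosome 17 at 57203970 to 57228136 (GRCm38, minus strand). C3 had 100.1, 105 and 155 CPM in the BALB/c libraries, against 10.6, 12.7 and 7.62 CPM in the B6 libraries. The lowest BALB/c library was thus far above the highest B6 library, and the spread within each strain was small beside the gap. The log2 fold was 3.42 ± 0.19 (SE, n = 3 each, limma adjusted p = 7.04e-12). C3 kept its call in every alternative run, with folds between 3.02 and 3.57.

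C4b encodes C4, the thioester protein that the C1 complex cleaves in the classical pathway. It lies in the major histocompatibility complex on chromosome 17 at 34728380 to 34743882 (GRCm38), as do C4a, C2 and Cfb, and the strains carry different haplotypes of that region. C4b had 3.58, 5.19 and 5.91 CPM in BALB/c, against 1.10, 1.71 and 0.785 CPM in B6, and no B6 library reached the BALB/c values. Its log2 fold was 1.42 ± 0.36 (SE, limma adjusted p = 0.0122). Leaving out BALB/c replicate 2 (1.38, limma adjusted p = 0.0542) or BALB/c replicate 3 (1.30, 0.0634) ended the call, as did limma-voom on the recovered reads (1.99, 0.0526). C4a, its close relative, had 1.74, 0.944 and 1.10 CPM in BALB/c, against 0.220, 1.61 and 0.897 CPM in B6, with overlap and no call (0.30 ± 0.42, limma adjusted p = 0.758). Of 50-base words along the last 300 bases of the C4b transcript, 52.9% also occur in C4a, so reads there cannot be assigned to 1 of the genes with certainty. Added together, C4a and C4b had 5.32, 6.13 and 7.01 CPM in BALB/c and 1.32, 3.33 and 1.68 CPM in B6.

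The tested members of the terminal pathway, C8a and C8g, gave no call. C8a, which encodes the alpha chain of C8 in the membrane attack complex, had 90.8, 105 and 95.7 CPM in BALB/c, against 95.9, 86.0 and 92.3 CPM in B6, so that the strains overlapped (0.087 ± 0.11, SE, limma adjusted p = 0.725). C8g, the gene of the C8 gamma chain, averaged 12.9 ± 4.20 CPM in BALB/c and 8.28 ± 2.62 CPM in B6 (SD, n = 3 each), with a log2 fold of 0.58 and a limma adjusted p of 0.232. C6 and C7, whose products join the complex before C8, had at most 13 reads in any library. They were not tested, and a difference between the strains was not detectable at this depth. Further terminal genes were also too low to test. Over all libraries of a strain, Hc, the C5 gene, had 0 reads in BALB/c and 8 in B6. C8b had 3 and 0, and C9 had 6 and 6.

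None of the 5 tested proteases of the classical and lectin pathways was called by limma, and 1 had an unadjusted p under 0.05, a level that 21.3% of all genes tested reached. C2, the protease that joins C4b in the classical C3 convertase, had 43.5, 33.1 and 36.7 CPM in BALB/c, against 26.7, 32.1 and 30.7 CPM in B6. The BALB/c libraries all lay above the B6 libraries, but by a small margin (0.32 ± 0.16, SE, limma adjusted p = 0.242). C2 exons overlap those of Zbtb12 and of Gm20547. C1s1, which encodes the protease C1s, had 9.68, 9.32 and 9.02 CPM in BALB/c, against 15.5, 12.5 and 14.9 CPM in B6, without overlap and without a call (-0.56 ± 0.23, limma adjusted p = 0.147). It shares 21.6% of its 3′ end words with C1s2, and the sum of the pair was between 10.7 and 11.2 CPM in BALB/c and between 15.9 and 17.4 CPM in B6. C1ra, C1rl and Masp2 had log2 folds between 0.12 and 0.41, with overlapping libraries. Masp1, a protease of the lectin pathway, had 2 reads in BALB/c and 1 in B6 over all libraries of a strain.

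The 3 genes of the alternative pathway, the amplifying arm of complement, were not called, and 0 had an unadjusted p under 0.05. Cfb, which encodes factor B, the protease of the alternative C3 convertase, had 290, 276 and 282 CPM in BALB/c, against 272, 260 and 279 CPM in B6. The strains overlapped, and the log2 fold was 0.066 ± 0.089 (SE, limma adjusted p = 0.746). Cfb shares 84.3% of its 3′ end words with Gm20547, a gene model whose exons overlap those of both Cfb and C2. Properdin (Cfp), which stabilises that convertase, had 0.968, 1.06 and 1.001 CPM in BALB/c and 0.331, 1.31 and 1.35 CPM in B6.

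Cfd encodes factor D, the protease that activates factor B, and is also known as adipsin for its high expression in fat. It had 6.87, 1.18 and 2.81 CPM in BALB/c, against 0.880, 18.4 and 0 CPM in B6. The value of B6 replicate 2 stood apart from both other B6 libraries and from all BALB/c libraries. In B6 replicate 2 the adipocyte markers Adipoq (3.33 CPM), Retn (4.03), Lep (0.604) and Car3 (18.4) were each at their highest of the 6 libraries, as was Plin1 (0.907), while Adipoq was at most 0.236 CPM elsewhere. Cidec and Fabp4 differed from these. Cidec had 4.07 CPM in BALB/c replicate 1 and 0 in B6 replicate 2. Fabp4 had 163 CPM in B6 replicate 2, above the other B6 libraries but below the 169 to 197.5 CPM of BALB/c. Of the 7 adipocyte markers, 2 were tested, of which Fabp4 was higher and Car3 lower in BALB/c, and the summed level of all 7 was between 174 and 203 CPM in BALB/c and between 115 and 191 CPM in B6, mostly from Fabp4, which endothelium also expresses. The part of fat in the Cfd values was not tested. The log2 fold of Cfd was 0.28 ± 0.69 (SE, limma adjusted p = 0.872), and without B6 replicate 2 it was 1.55.

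**Figure D2:**
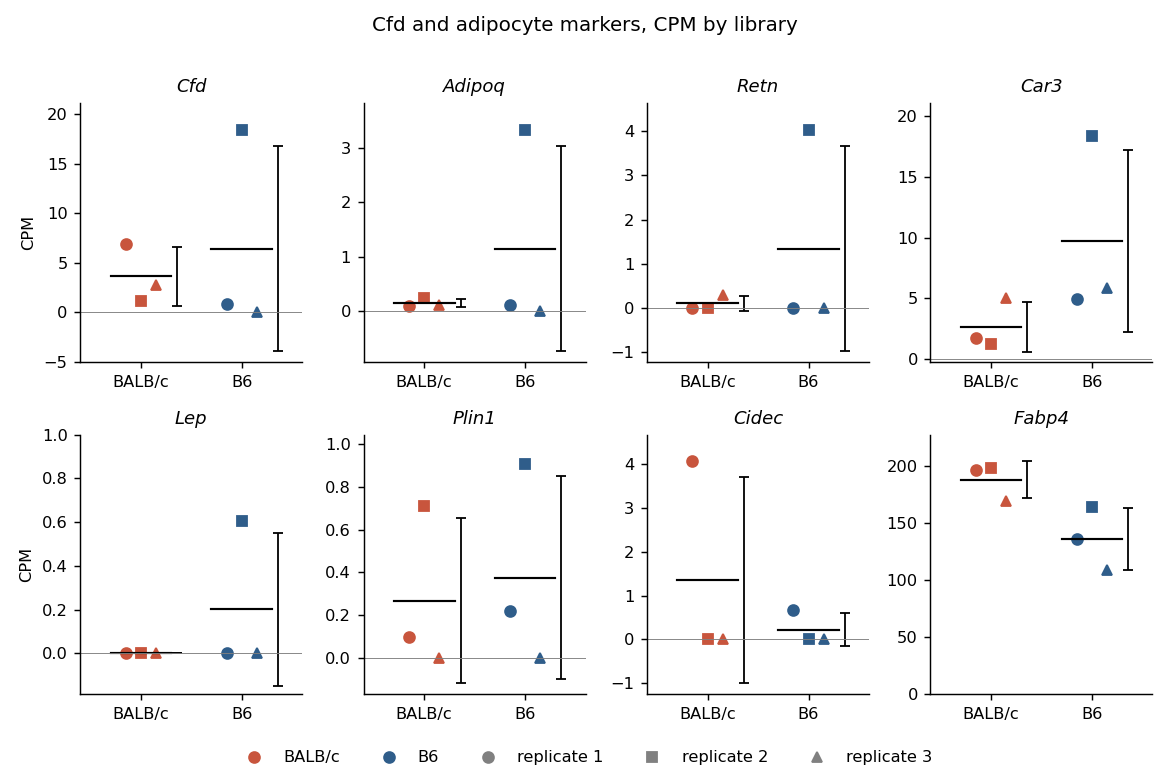
CPM by library (y axis, a separate scale for each gene) of Cfd and 7 adipocyte markers in BALB/c and B6 kidney, with 1 point per library, a line at the mean and a bar of 1 SD. B6 replicate 2 is the highest library for Cfd (18.4 CPM), Adipoq (3.33 CPM), Retn (4.03 CPM) and Car3 (18.4 CPM).

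None of the 4 regulators that limit complement was called by limma, and 1 had an unadjusted p under 0.05 (21.3% over all genes). Cd59a, which encodes an inhibitor of the membrane attack complex, had 195, 181 and 183 CPM in BALB/c, against 225, 216 and 185 CPM in B6 (-0.16 ± 0.10, SE, limma adjusted p = 0.404). Cr1l, the gene of Crry, a rodent regulator of C3 convertases, averaged 45.1 ± 3.62 CPM in BALB/c and 43.5 ± 1.90 CPM in B6 (SD, n = 3 each). Cfi, which encodes factor I, the protease that inactivates C3b and C4b, had 7.94, 5.90 and 7.62 CPM in BALB/c, against 4.29, 2.82 and 3.36 CPM in B6. Its libraries did not overlap, but the call was missed (0.86 ± 0.31, limma adjusted p = 0.0850). Cd55, the gene of decay-accelerating factor, varied within both strains, with 1.84, 6.72 and 1.70 CPM in BALB/c and 5.29, 3.83 and 8.30 CPM in B6 (-0.75, limma adjusted p = 0.280).

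The receptors for the complement fragments C3a and C5a differed in their counts. C5ar1, the C5a receptor gene of myeloid cells, on chromosome 7 at 16246743 to 16259540 (GRCm38), had 0, 0 and 0.201 CPM in BALB/c, against 1.76, 2.42 and 1.57 CPM in B6. In reads these were 2 over the 3 BALB/c libraries and 54 over the 3 B6 libraries, without overlap. C5ar1 passed the filter through the B6 libraries alone, so the outcome of its test was in part fixed by the filter. The log2 fold was -1.45 ± 0.41 (SE, limma adjusted p = 0.0278). This call ended when BALB/c replicate 1 or 2 or any of B6 replicates 1, 2 and 3 was left out, with folds between -1.53 and -1.33 and adjusted p between 0.0543 and 0.104. It also ended with the replicate number as a block (limma adjusted p = 0.0518) and with a pseudocount of 5 CPM (-0.45, 0.0505). With every gene of at least 1 read fitted, C5ar1 was called (limma adjusted p = 0.00489). C3ar1, the C3a receptor gene, had 3.29, 5.19 and 2.61 CPM in BALB/c, against 2.09, 2.52 and 5.27 CPM in B6, with overlap (0.16 ± 0.37, limma adjusted p = 0.857).

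Markers of macrophages, which carry these receptors, moved in both directions. Of 10 macrophage markers, 7 had a positive and 3 a negative fold. By limma, 3 were called higher in BALB/c (Csf1r, Lyz2 and Cx3cr1) and 0 lower, where 4.17% of all genes tested were called higher and 4.93% lower. C1qb, with an unadjusted p under 0.05, had 9.88, 10.6 and 9.02 CPM in BALB/c, against 14.0, 15.9 and 16.4 CPM in B6, without overlap and without a call (-0.60, limma adjusted p = 0.107). C1qc (-0.54) and Adgre1 (-0.74) also had negative folds, as C5ar1 did, with overlap and no call. Cd14 (0.54), Mrc1 (0.37), Cd68 (0.12) and C1qa (0.073) had positive folds, likewise with overlap and no call. The summed level of the 10 was between 201 and 202 CPM in BALB/c and between 130 and 152 CPM in B6. Without Csf1r the sums overlapped, with 67.9 to 98.4 CPM in BALB/c and 69.3 to 77.8 CPM in B6. The neutrophil markers S100a8 and S100a9 were the tested members of a list of 5, and S100a9 was higher in BALB/c (1.62, limma adjusted p = 0.00517). The summed level of that list was between 7.41 and 12.3 CPM in BALB/c and between 1.43 and 2.36 CPM in B6, and its marker Ngp was at 0 in all libraries. The part of these cells in the C5ar1 difference was not tested.

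Among tested coagulation genes, the 3 chains of fibrinogen had the lowest folds on the log2(CPM + 1) scale. Fibrinogen, the precursor of fibrin, is built from alpha, beta and gamma chains whose genes Fga, Fgb and Fgg lie side by side on chromosome 3 between 83007724 and 83049863 (GRCm38). Since all 3 neighbours lay lower in every BALB/c library, the 250 bases before each RefSeq start (GRCm38.p6) are shown, at chr3:83025903-83026152 on the plus strand for Fga, chr3:83049864-83050113 on the minus strand for Fgb and chr3:83007474-83007723 on the plus strand for Fgg. They are the B6 reference and not BALB/c sequence. Capitals mark matches on either strand to GTTAAT, a core of the site of the liver and kidney factor HNF1, to TTNNGNAA, a relaxed C/EBP site, and to CTGGGAA, an IL-6 response element of acute phase genes, and no match overlapped another.
Fga: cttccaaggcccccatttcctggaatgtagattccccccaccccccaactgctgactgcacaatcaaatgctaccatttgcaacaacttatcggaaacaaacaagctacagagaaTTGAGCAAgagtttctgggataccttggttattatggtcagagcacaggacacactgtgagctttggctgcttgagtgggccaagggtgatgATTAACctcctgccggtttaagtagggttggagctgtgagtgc
Fgb: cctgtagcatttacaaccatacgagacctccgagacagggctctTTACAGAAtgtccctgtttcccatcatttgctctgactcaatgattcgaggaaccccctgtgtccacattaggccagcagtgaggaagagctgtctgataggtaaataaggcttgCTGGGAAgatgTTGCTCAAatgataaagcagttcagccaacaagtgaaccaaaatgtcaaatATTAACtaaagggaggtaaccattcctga
Fgg: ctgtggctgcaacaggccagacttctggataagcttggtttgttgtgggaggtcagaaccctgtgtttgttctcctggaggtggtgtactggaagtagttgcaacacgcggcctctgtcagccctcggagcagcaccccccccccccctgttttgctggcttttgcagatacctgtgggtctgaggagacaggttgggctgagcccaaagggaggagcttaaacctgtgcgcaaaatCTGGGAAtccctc
In these windows GTTAAT occurred once before Fga and once before Fgb, with its last base 38 and 24 bases before the RefSeq start, and not before Fgg. GENCODE M21 places the start of Fga at 83026076, inside the window shown, so the GTTAAT match of Fga lies after that start. TTNNGNAA occurred at 1 place before Fga and 2 before Fgb, and CTGGGAA at 1 place before Fgb and 1 before Fgg. Of 32851 mouse windows of the same length, 6.43% held GTTAAT, 36.8% TTNNGNAA and 9.10% CTGGGAA. These matches describe letters and are no evidence that a factor bound there.

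Fgb, the beta chain gene, had 0, 1.06 and 2.004 CPM in BALB/c, against 11.1, 17.4 and 22.4 CPM in B6. All BALB/c libraries lay well below all B6 libraries. Its log2 fold was -3.24 ± 0.38 (SE, n = 3 each, limma adjusted p = 2.24e-06). Fgg, the gamma chain gene, had 0.0966, 3.42 and 2.004 CPM in BALB/c, against 4.96, 11.9 and 7.06 CPM in B6, again without overlap, and a log2 fold of -1.80 ± 0.43 (limma adjusted p = 0.00806). Fga, the alpha chain gene, had 0.484, 1.06 and 0.702 CPM in BALB/c, against 2.31, 4.13 and 2.58 CPM in B6. Its strains did not overlap either, but it missed the threshold (-1.18 ± 0.39, limma adjusted p = 0.0571). The size of these folds depended on the pseudocount: with 5 CPM Fgb had -1.85 and Fgg -0.92, and with 0.25 CPM they had -4.20 and -2.44, called each time.

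The Fgb call held in every alternative run. The Fgg call was lost when BALB/c replicate 1 was left out (-1.23, limma adjusted p = 0.0616) or B6 replicate 2 (-1.50, 0.0507), with every gene of at least 1 read fitted (0.0760) and with a constant variance prior (0.130). Fga was called with a constant prior (limma adjusted p = 0.0351). Exons of Fgg overlap those of Gm30097 on the opposite strand, and whether counting used strand is not given in the sources used here.

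Further plasma protein genes known from the liver had few reads. F2, the prothrombin gene, on chromosome 2 at 91625320 to 91636414 (GRCm38), had 0 reads in all 3 BALB/c libraries, against 8, 7 and 13 reads in B6. A count of 0 was taken to allow up to 3 reads over the 3 BALB/c libraries. At that limit F2 was 9.62-fold lower in BALB/c, with the 28 B6 reads taken as exact. The counting error of the B6 reads was left out, so a smaller fold is possible. F2 lay below the filter and was not tested in the main fit. With every gene of at least 1 read fitted, it was called lower (-0.99, limma adjusted p = 0.0203). Plg, the plasminogen gene, had 1, 0 and 0 reads in BALB/c, against 6, 10 and 1 in B6, and its exons overlap those of Slc22a3. F7, the gene of factor VII, had 0 reads in all 6 libraries. F10, the gene of factor X, had 18 reads in BALB/c and 34 in B6 over all libraries of a strain (-0.40, limma adjusted p = 0.675).

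Hepatocyte markers were detected, and some but not all lay lower in BALB/c, as the fibrinogen chains did. Of 10 markers, 7 were tested, 0 were higher and 2 were lower in BALB/c, where 4.93% of all genes tested were lower. The 2 were Apoa2, an apolipoprotein gene, and the transferrin gene Trf. Apoa2 had 1.55, 1.53 and 1.90 CPM in BALB/c against 5.40, 8.27 and 10.5 CPM in B6. Trf had 13.9, 18.3 and 16.5 CPM in BALB/c against 26.3, 37.5 and 31.5 CPM in B6. The albumin gene Alb had 5.42, 11.3 and 10.2 CPM in BALB/c, against 14.4, 13.1 and 15.1 CPM in B6, without a call (-0.66, limma adjusted p = 0.132). Ttr, the transthyretin gene, overlapped between the strains, with 82.3 to 118 CPM in BALB/c and 102 to 105 CPM in B6. Other markers had positive folds or more reads in BALB/c: Serpina1c (0.40) and Ahsg (0.088) were tested and not called, and Apoh (9 reads in BALB/c and 2 in B6) and Hpx (13 reads in BALB/c and 6 in B6) were not tested. The summed level of the 10, mostly from Ttr, was between 110 and 155 CPM in BALB/c and between 156 and 172 CPM in B6, and Tat was at 0 in all libraries. BALB/c replicate 1 was the lowest library for all 3 fibrinogen chains and for Alb, Ttr, Apoa1 and Trf. BALB/c replicate 2 was the lowest for Apoa2 and Serpina1c, and B6 replicate 1 for Ahsg and Hpx. The part of liver transcripts in the fibrinogen difference was not tested.

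**Figure D3:**
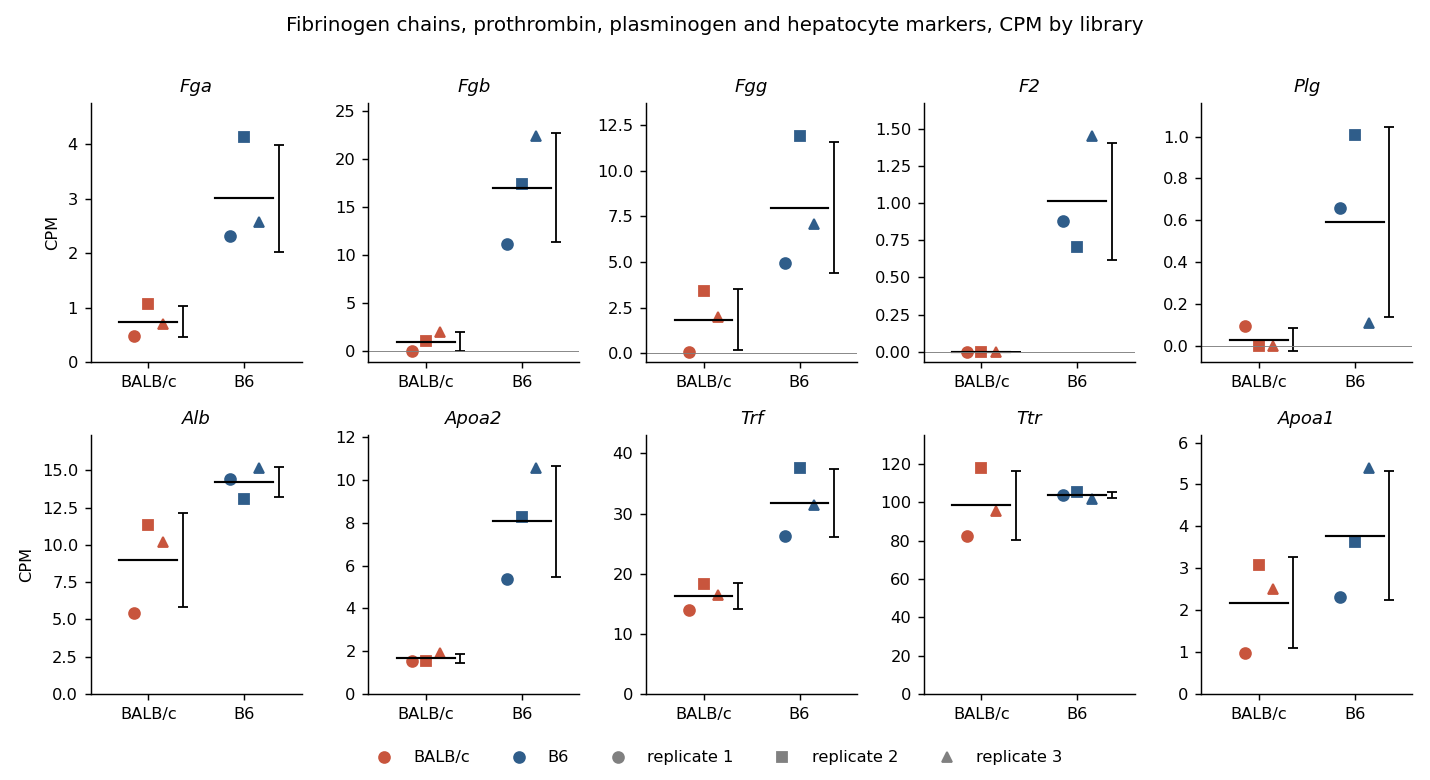
CPM by library (y axis, a separate scale for each gene) of the fibrinogen chains, F2, Plg and 5 hepatocyte markers in BALB/c and B6 kidney, with 1 point per library, a line at the mean and a bar of 1 SD. The BALB/c libraries lie below the B6 libraries for Fga, Fgb, Fgg, F2, Alb, Apoa2 and Trf, and overlap them for Ttr and Apoa1. For Plg, BALB/c replicate 1 and B6 replicate 3 each held 1 read and differ in CPM by library size alone.

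Factors V and VIII, the cofactors that speed thrombin formation, both lay below the B6 values in every BALB/c library, though F5 alone was called. F5, on chromosome 1 at 164151838 to 164220277 (GRCm38), had 31.1, 23.4 and 20.1 CPM in BALB/c, against 39.8, 43.1 and 38.02 CPM in B6, without overlap. Its log2 fold was -0.70 ± 0.17 (SE, limma adjusted p = 0.00965), which missed the threshold when BALB/c replicate 3 was left out (-0.56, 0.0562) or with a constant variance prior (0.0942). F5 exons overlap those of Gm16548 on the opposite strand. F8 had 13.9, 16.8 and 11.4 CPM in BALB/c, against 19.8, 18.2 and 25.01 CPM in B6 (-0.55 ± 0.21, limma adjusted p = 0.117). F13a1, the gene of the fibrin-crosslinking factor XIII A chain, was low and uneven, with 11, 13 and 12 reads in BALB/c and 1, 21 and 1 in B6.

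F2r encodes PAR1, the receptor that thrombin activates by cleavage, and lies on chromosome 13 at 95601803 to 95618487 (GRCm38). It had 33.4, 36.8 and 33.2 CPM in BALB/c, against 78.6, 76.4 and 81.1 CPM in B6. Both strains were tight, and the highest BALB/c library was far below the lowest B6 library. The log2 fold was -1.17 ± 0.13 (SE, n = 3 each, limma adjusted p = 8.92e-07), and the call held in every alternative run, with folds between -1.22 and -1.09. F3, the gene of tissue factor, which starts coagulation, had 8, 8 and 16 reads in BALB/c and 4, 6 and 10 in B6 and was not tested. F11r encodes the junctional adhesion molecule JAM-A, a tight junction protein, and had 174, 164 and 169 CPM in BALB/c, against 181, 140.2 and 185 CPM in B6 (0.013 ± 0.11, limma adjusted p = 0.967).

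Procr was the sole tested anticoagulant member called. It encodes the endothelial protein C receptor, which presents protein C to thrombin and thrombomodulin, and lies on chromosome 2 at 155751117 to 155755471 (GRCm38). It had 9.10, 6.01 and 11.8 CPM in BALB/c, against 1.10, 3.63 and 2.92 CPM in B6, without overlap. Its log2 fold was 1.53 ± 0.35 (SE, limma adjusted p = 0.00597), which missed the threshold when B6 replicate 1 was left out (1.19, 0.0526), when every gene of at least 1 read was fitted (0.0509) or with a constant prior (0.0646). Of 9 endothelial markers, 0 were called by limma. Pecam1, Kdr and Flt1 had an unadjusted p under 0.05 (3 of 9, against 21.3% over all genes), each below B6 in every BALB/c library. The list had a summed level between 345 and 357 CPM in BALB/c and between 363 and 411 CPM in B6.

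The partners of Procr were not called. Proc, the protein C gene, had 62.8, 47.3 and 38.9 CPM in BALB/c, against 64.5, 46.0 and 51.5 CPM in B6, with overlap (-0.13 ± 0.16, SE, limma adjusted p = 0.719). Thbd, the thrombomodulin gene, averaged 12.9 ± 3.23 CPM in BALB/c and 15.4 ± 3.04 CPM in B6 (SD, n = 3 each). Tfpi, the gene of tissue factor pathway inhibitor, averaged 11.3 ± 4.41 CPM in BALB/c and 14.7 ± 4.50 CPM in B6.

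The activators of fibrinolysis were not called. Plau, the urokinase gene, had 126, 149.7 and 143 CPM in BALB/c, against 166, 167 and 153 CPM in B6. The BALB/c libraries lay just below the B6 libraries, and the log2 fold of -0.22 ± 0.10 (SE, limma adjusted p = 0.218) was not called. Plat, the gene of tissue plasminogen activator, averaged 16.8 ± 1.68 CPM in BALB/c and 19.4 ± 2.82 CPM in B6 (SD, n = 3 each).

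**Figure D4:**
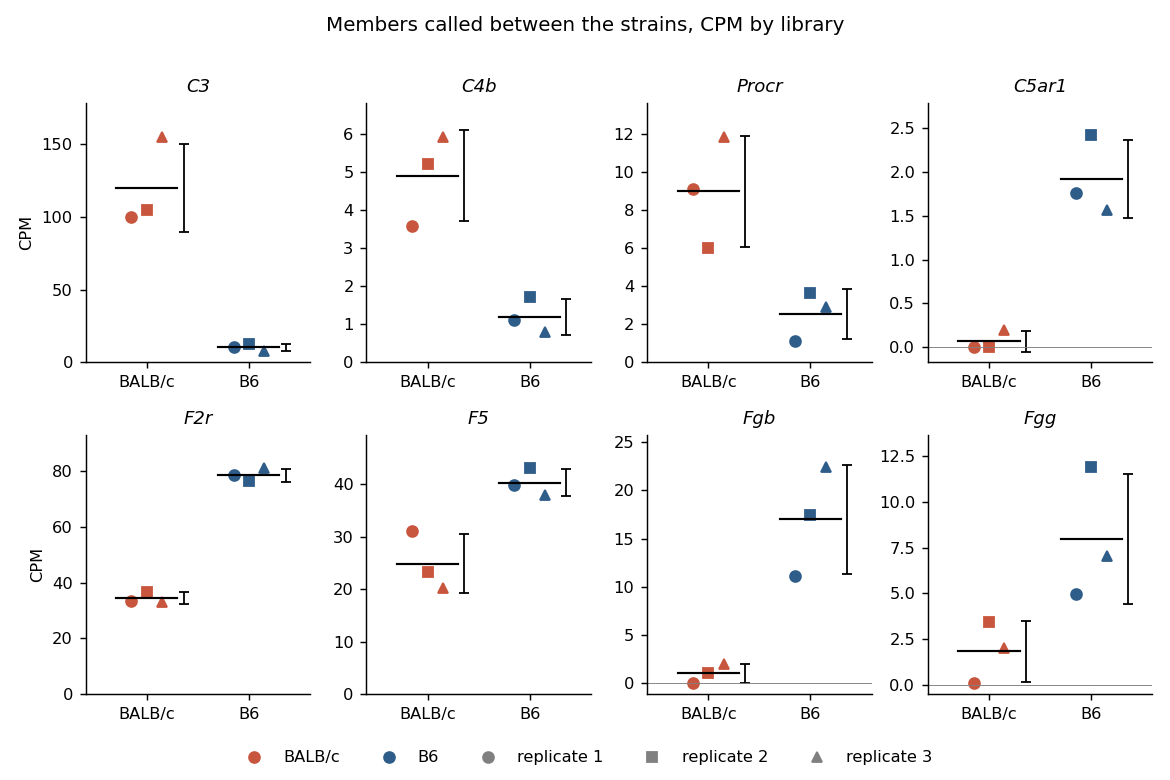
CPM by library (y axis, a separate scale for each gene) of the 8 called members in BALB/c and B6 kidney, with 1 point per library, a line at the mean and a bar of 1 SD. BALB/c libraries lie above B6 libraries for C3, C4b and Procr and below them for C5ar1, F2r, F5, Fgb and Fgg.

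Of the 26 tested members that were not called, 15 had a positive and 11 a negative log2 fold, and 19 were smaller than 0.5 in size. Folds of the uncalled members ran from -1.18 for Fga to 0.86 for Cfi. limma-voom on the recovered reads called none of these 26.

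A further 69 genes of the cascades were examined, of which 41 were tested, 1 was higher and 3 were lower in BALB/c. That is 9.76% of those tested, near the 9.09% over all genes. Among 36 complement genes, 19 were tested and 2 fell (10.5% called, against 9.09% of all genes). Cpn1, the catalytic subunit of carboxypeptidase N, which inactivates C3a and C5a by removing their terminal arginine, had 23.1, 26.8 and 27.7 CPM in BALB/c, against 83.9, 90.4 and 75.7 CPM in B6, with a wide gap between the strains (-1.65 ± 0.14, SE, limma adjusted p = 1.03e-08). Clu, which encodes clusterin, an inhibitor of the terminal complex, had 146, 169 and 155 CPM in BALB/c, against 247, 268 and 275 CPM in B6 (-0.75 ± 0.10, limma adjusted p = 1.02e-05). C1qbp, named for binding of C1q, had a log2 fold of 0.16, and Serping1, the C1 inhibitor gene, had -0.21, and neither was called.

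Among 33 coagulation genes, 22 were tested, 1 rose and 1 fell, a share equal to the 9.09% over all genes. Serpina10 encodes an inhibitor of factor Xa that depends on protein Z, and had 10.5, 10.1 and 7.82 CPM in BALB/c, against 1.32, 2.82 and 2.35 CPM in B6 (1.75 ± 0.32, SE, limma adjusted p = 6.68e-04). Mcfd2 encodes a subunit of the receptor that carries factors V and VIII out of the endoplasmic reticulum, and had 53.7, 62.3 and 53.5 CPM in BALB/c, against 97.2, 92.6 and 96.6 CPM in B6 (-0.75 ± 0.12, limma adjusted p = 1.30e-04). Lman1, the other subunit of that receptor, had -0.24 and was not called (limma adjusted p = 0.160). Kng2, a kininogen gene that shares 41.2% of its 3′ end words with Kng1, had a log2 fold of -0.048, and Gas6, a vitamin K-dependent ligand, had 0.26, both uncalled (limma adjusted p = 0.831 and 0.0608). Gas6 was called higher without B6 replicate 3 (0.30, limma adjusted p = 0.0444). Cpn1, Clu, Serpina10 and Mcfd2 kept their calls in every alternative in which they were tested.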

How the data were processed

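RNA of kidney was measured in 3 BALB/c and 3 B6 libraries, extracted with Trizol and made with a Lexogen QuantSeq kit per the labels' protocols. The submitters' processing notes name Bowtie2, bedtools and the build mm10. No version, annotation, rule for multiply aligned reads or strand setting is stated in the sources used here. The values deposited by the authors are on a log2 scale, log2(CPM + 1), as worked out from the values: linear sums lay between 980188 and 1043599, and low CPM values (20 reads or fewer) fell on whole reads, to a tolerance of 0.1 read, in 100% of cases. One read was worth between 0.0968 and 0.118 CPM. The depth per library sets the counting error, and limits from a count of 0 cover only the counting error of that count.

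All rows that passed the filter entered a single limma fit (limma 3.58.1, R 4.3.3) to the deposited values. Strain was its only covariate, with a variance prior that follows the level (4 residual and 18.4 prior degrees of freedom). The members and lists were chosen with earlier results of these data known. Called members, members without overlap and with a log2 fold of at least 0.5 in size, and the member with the highest mean of each role are given by library, with the called and the 2 highest uncalled genes of each further list. Other names were chosen after their values were seen. Same-strain libraries were distinct (chi-square over degrees of freedom of 7.75 to 16.3 for each pair), and none was counted as a repeat. Coordinates and exon overlaps were read from GENCODE M21 (GRCm38, which mm10 names), where all 41 members were placed. To find shared 3′ ends, 50-base words, 1 every 5 bases, of the last 300 bases of a transcript were looked up in the other transcripts. Promoters came from RefSeq on GRCm38.p6 and held all 3 fibrinogen genes. The fit was tested on simulated data of the strain comparison (13336 genes, 200 changed). There 56% of true log2 folds of 1 and 100% of true log2 folds of 2 were called, with 9 of 165 calls false. Every simulated gene had the same set dispersion, which was not estimated from these libraries. The shares are therefore no measure of how often real folds of that size were called here. Changed genes were drawn only from those averaging 5 CPM or higher, and the shares were not split by level above that. C5ar1 (0.992 CPM over all libraries) and Fga (1.88 CPM) lay below that floor. The shares thus give no rate of calls for members with so few reads. Alternatives were other pseudocounts, filters, scalings, variance priors, limma-voom on recovered reads, a replicate block and leaving out each library.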

Additional observations from a re-analysis of the deposited data

How the results depend on the processing

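Calls over all genes numbered 493 with a constant variance prior and 797 to 1138 when 1 library was left out, against 1211, and 977 with the replicate number as a block. The block gave 3 members higher and 4 lower, ending the C5ar1 call (limma adjusted p = 0.0518). Deviations of libraries with the same number correlated at 0.012, -0.057 and -0.084, so the numbers give no sign of pairing. With 1 library left out, 2 to 3 members were higher and 3 to 4 lower, and 1 to 2 of the further pathway genes were higher and 3 to 4 lower, Serpine2 being the added lower gene without BALB/c replicate 1. A mean of at least 5 CPM left 3 members lower, since C5ar1 and Fgg were then not tested. Total scaling, upper quartile scaling, a robust prior and limma-voom each gave 2 further pathway genes higher, with Gas6 added. A pseudocount of 5 CPM ended the C5ar1 call (-0.45, limma adjusted p = 0.0505). Cfd turned to -0.087 with that pseudocount and to between -0.58 and 1.55 with 1 library left out. Over left-out libraries the uncalled folds of C1ra (-0.010 to 0.30), C1rl (-0.021 to 0.29), Cfp (-0.21 to 0.20), C3ar1 (-0.055 to 0.47), F11r (-0.11 to 0.083) and Proc (-0.31 to 0.029) also changed sign. Scalings moved the median of all genes by under 0.1 on the log2 scale. The factors of TMM scaling, a trimmed mean of log ratios, lay between 0.998 and 1.004. It thus left the values nearly as deposited and was no independent check. Tests by edgeR and DESeq2 were not run, and limma-voom was the sole fit to recovered reads. Members with under 20 reads in a library are limited by depth.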
